A study of Homo sapiens with 6 samples.

Results

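The respiratory chain and its upkeep include a small set of proteins whose genes are linked to hypoxia and the hypoxia-inducible factors (HIFs). The link is either direct or through a related gene or a regulator. The set examined here comprised NDUFA4 and its paralog NDUFA4L2, COX4I1 and its paralog COX4I2, the protease gene LONP1, the HIG1 domain genes HIGD1A and HIGD2A, and the iron-sulfur scaffold gene ISCU. Members were taken by gene symbol from the deposited count table, which held 7 of the 8 listed genes among 19009 symbols. COX4I2 was not analysed here, so COX4I1 is described without its hypoxic partner.

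The counts come from RCC10, an established human line of clear cell renal carcinoma that lacks functional VHL. The 3 groups had 2 libraries each and all carried the RCC10 background. They were parental cells with no added construct (labelled WT, treatment Control), HIF-1/2alpha double knockout cells (DKO), made with lentiviral guide RNAs and puromycin, and VHL reconstituted cells, which received VHL on a lentivirus. All were grown in DMEM with serum. The labels name no vector or guide control, and the sources used here do not give the oxygen level, the promoter of the VHL construct, the clonality of the knockout cells or whether the libraries of a group came from separate cultures. The p-values therefore set group differences only against the spread between libraries of a group, which can be technical. That spread was estimated over all 3 groups together.

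As background, VHL marks HIF-1alpha and HIF-2alpha for destruction when oxygen is present, so its loss in clear cell carcinoma leaves HIF active at any oxygen level. In hypoxic cells HIF is known to change the make-up of the respiratory chain. NDUFA4, once assigned to complex I, is a subunit of complex IV (cytochrome c oxidase). NDUFA4L2 is a HIF-1 target known to lower complex I activity, and COX4I2 is known to replace COX4I1 in complex IV while the matrix protease LONP1 degrades the replaced isoform. ISCU, the scaffold on which iron-sulfur clusters are built, is a known target of the hypoxia-induced microRNA miR-210.

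Library totals ran from 22248126 to 29929116 counts. HIF1A fell to 30.6 ± 1.42 CPM (reads of a gene relative to the library's total reads, scaled by TMM; SD, n = 2) in double knockout cells from 71.2 ± 2.42 in parental cells, and EPAS1, which encodes HIF-2alpha, fell from 350.5 ± 2.21 to 46.2 ± 2.54. VHL was at 39.1 ± 0.461 CPM in parental cells and 687.1 ± 50.3 in VHL restored cells, in which HIF1A was also higher, at 295.2 ± 12.6. A guide-edited gene can still be transcribed, so the remaining HIF reads do not measure remaining protein. The renal marker PAX8 was present, while LRP2 and CA9 were at or near 0. Other renal markers differed between groups in both directions. In parental, double knockout and VHL restored cells, mean CPM was 30.3, 1.73 and 22.1 for CDH16. It was 6.35, 0.492 and 0.787 for CUBN, and 1.67, 15.4 and 1.11 for PAX2. PECAM1, KDR, PTPRC and CD3E, which define endothelial cells and leukocytes, were at 0 in all 6 libraries, and so was HIGD1B, a HIG1 family gene known from pericytes. Other genes of these marker lists were present and differed between groups. For log2 fold changes, here and below, ± is the standard error (SE) of the fit. ABCC9, a pericyte marker, had a log2 fold change of 5.85 ± 0.35 in double knockout cells. The 2 libraries there had 16.9 and 18.9 CPM against 0.303 and 0.309 in parental cells. The pericyte markers PDGFRB and RGS5 fell in double knockout cells by 1.91 ± 0.15 and 1.09 ± 0.12 on the same log2 scale. ITGAM, a leukocyte marker, rose by 1.98 ± 0.32 in double knockout cells, and TEK, an endothelial marker, by 2.05 ± 0.35 in VHL restored cells, with highest values of 3.04 and 1.82 CPM. Their part in the members' results was not tested.

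The promoters of the paralogous pair are shown because NDUFA4L2 and NDUFA4 had very different levels across the groups, and that of HIGD1A because it is a known HIF target with the opposite direction. Each sequence is the 250 bases before a RefSeq transcription start in GRCh38.p14, written 5′ to 3′ in the direction of transcription. RefSeq lists NDUFA4 and NDUFA4L2 as COXFA4 and COXFA4L2. Capitals mark matches, on either strand, to ACGTG or GCGTG, the core letters to which HIF is known to bind. All 3 lie on the minus strand, at chr12:57240763-57241012 for NDUFA4L2, chr7:10940154-10940403 for NDUFA4 and chr3:42804491-42804740 for HIGD1A.
NDUFA4L2: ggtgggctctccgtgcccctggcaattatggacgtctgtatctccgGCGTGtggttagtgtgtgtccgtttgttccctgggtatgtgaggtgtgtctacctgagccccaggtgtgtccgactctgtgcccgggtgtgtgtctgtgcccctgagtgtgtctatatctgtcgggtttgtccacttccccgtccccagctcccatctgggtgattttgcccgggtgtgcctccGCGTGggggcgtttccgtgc
NDUFA4: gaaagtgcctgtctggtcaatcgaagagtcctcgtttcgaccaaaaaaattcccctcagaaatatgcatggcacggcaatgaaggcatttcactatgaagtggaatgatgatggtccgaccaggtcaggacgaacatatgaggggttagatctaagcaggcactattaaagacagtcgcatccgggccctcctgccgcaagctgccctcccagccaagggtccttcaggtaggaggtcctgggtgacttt
HIGD1A: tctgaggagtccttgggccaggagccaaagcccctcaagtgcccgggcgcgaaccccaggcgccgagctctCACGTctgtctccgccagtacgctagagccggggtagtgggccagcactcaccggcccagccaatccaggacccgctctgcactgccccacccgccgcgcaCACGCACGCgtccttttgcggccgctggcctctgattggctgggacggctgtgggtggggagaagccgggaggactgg
The NDUFA4L2 window held 2 matches, both GCGTG, and the HIGD1A window held 3, of which 1 was ACGTG and 2 were GCGTG. NDUFA4 and COX4I1 had 0 matches, HIGD2A and ISCU had 2 each, and LONP1 had 1 before its upstream start and 6 before its downstream start, where matches that share the palindrome CACGTG are counted on both strands. Of 35116 RefSeq windows of the same length, 43.2% held at least 1 match, 19.4% at least 2 and 7.76% at least 3. A match is a description of letters and was not tested as a binding site. The windows of HIGD1A, whose gene rose in double knockout cells, and of NDUFA4L2, whose gene fell, both held matches.

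In double knockout cells, 7 of 7 tested members differed from parental cells in edgeR's quasi-likelihood test at an adjusted p under 0.05, with 6 higher and 1, NDUFA4L2, lower. Over all 18273 genes tested, 54.1% were called in this comparison, with 26.6% higher and 27.5% lower. In VHL restored cells, 5 of 7 members differed from parental cells, with COX4I1, HIGD1A and ISCU higher, NDUFA4 and NDUFA4L2 lower, and LONP1 and HIGD2A not past the threshold. The background there was 54.2% called, 26.5% higher and 27.7% lower. Among the 12687 genes with a mean of at least 1 CPM, a range that holds all 7 members, 71.7% were called for double knockout and 71.8% for VHL restored cells, so the number of members called is not a result in itself. Both comparisons use the same 2 parental libraries.

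NDUFA4L2 was nearly silent in both engineered lines. Parental libraries gave 60.1 and 57.3 CPM, double knockout libraries 0.0342 and 0, and VHL restored libraries 0.0715 and 0.214. These are 1782 and 1300 reads against 1 and 0, and 2 and 6. The groups did not overlap, and both engineered groups lay close to the 0.101 to 0.132 CPM that 3 counts represent in these libraries. With 1 read in the double knockout group, the summed level was 3238 times lower than in parental cells, with an exact 95% counting interval of 581 to 127920 (edgeR adjusted p = 5.5e-27). With VHL restored, it fell by 8.64 ± 0.51 on the log2 scale (SE, edgeR adjusted p = 8.4e-27), a 397.9-fold lower level. This fold rests on 8 reads: the log2 value was -9.59 without VHL restored replicate 2 and -8.07 without VHL restored replicate 1. In bulk RNA, fewer cells that express a gene and less of its RNA in each cell cannot be told apart. Counting intervals cover counting error only. NDUFA4L2 shares 33 exonic bases with SHMT2 on the opposite strand, and the part of SHMT2 reads in its counts was not tested.

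NDUFA4 moved in opposite directions in the 2 engineered lines. The parental pair was at 107.8 and 112.4 CPM, the double knockout pair at 138.9 and 142.6, and the VHL restored pair at 64.9 and 73.3. Both double knockout libraries were above, and both VHL restored libraries below, every parental library. The log2 fold change against parental cells was 0.36 ± 0.07 in double knockout cells (edgeR adjusted p = 2.3e-05) and -0.67 ± 0.07 in VHL restored cells (edgeR adjusted p = 4.5e-10). Loss of NDUFA4L2 reads thus went with more NDUFA4 in one line and with less in the other. NDUFA4 has 1 annotated pseudogene in GENCODE v29 that has no row in the table, and the sources used here do not say how shared reads were counted.

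Within a library, the ratio of the paralogs does not depend on scaling. Parental libraries had 557.2 and 510.0 NDUFA4L2 reads per 1000 NDUFA4 reads, with exact 95% intervals of 531.6 to 583.7 and 482.7 to 538.5. Double knockout libraries had 0.246 (0.00623 to 1.37) and 0 (up to 1.00), and VHL restored libraries had 1.10 (0.134 to 3.98) and 2.92 (1.07 to 6.36). The mean log2 ratio, with 0.5 added to each count, was lower than in parental cells in both lines, with differences of -11.22 for double knockout and -7.995 for VHL restored cells. With 2 libraries against 2, the exact two-sided permutation p was 0.333, the smallest this design allows. The double knockout value moved to -9.22 with 3 added to each count, since it rests on 1 read.

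A further gene of the family, C15orf48, encodes a protein known to replace NDUFA4 in complex IV during inflammation. In CPM, the parental libraries gave 24.7 and 26.3, the double knockout libraries 71.1 and 71.7, and the VHL restored libraries 1.54 and 1.64. It rose in double knockout cells (log2 fold change 1.49 ± 0.08, edgeR adjusted p = 3.4e-17) and fell by 4.00 ± 0.16 on the log2 scale in VHL restored cells (edgeR adjusted p = 2.0e-22). Per 1000 NDUFA4 reads parental libraries had 229.5 and 233.8 C15orf48 reads, double knockout libraries 511.7 and 503.0, and VHL restored libraries 23.7 and 22.4. C15orf48 thus took the same 2 directions as NDUFA4, with larger changes.

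**Figure D1:**
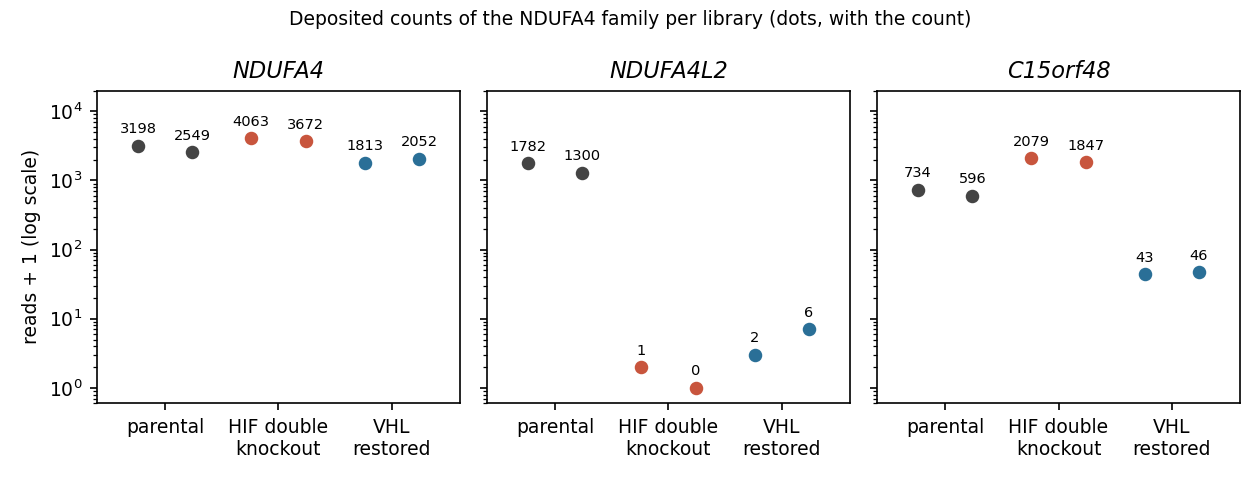
Deposited read counts of NDUFA4, NDUFA4L2 and C15orf48 in each library, plotted as reads plus 1 on a log axis with the count printed above each dot (2 libraries a group). NDUFA4L2 has 1782 and 1300 reads in the parental libraries and at most 6 in the others, while C15orf48 is highest in double knockout cells and NDUFA4 lowest in VHL restored cells.

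COX4I1, the constitutive isoform of complex IV subunit 4, was higher in both engineered lines. Parental libraries gave 200.8 and 198.4 CPM, double knockout libraries 244.3 and 238.5, and VHL restored libraries 263.2 and 307.4. No groups overlapped, although the VHL restored libraries were spread more widely than the other pairs. The log2 fold change was 0.27 ± 0.06 in double knockout cells (edgeR adjusted p = 0.000455) and 0.52 ± 0.06 in VHL restored cells (edgeR adjusted p = 3.0e-08). Without parental replicate 2, the first call was lost at nearly the same log2 fold change of 0.27 (edgeR adjusted p = 0.0604).

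Regulators of the COX4 isoforms did not move as a block. CHCHD2, a mitochondrial and nuclear protein known to activate COX4I2 transcription, had 149.8 and 149.4 CPM in the parental pair, 184.7 and 182.0 in the double knockout pair, and 87.6 and 95.8 in the VHL restored pair. Its log2 fold changes of 0.29 ± 0.06 (edgeR adjusted p = 0.000117) and -0.71 ± 0.06 (edgeR adjusted p = 2.9e-11) took the same signs as those of NDUFA4. CXXC5, which is known to act on the same promoter, fell in both lines, by 0.59 ± 0.07 in double knockout (edgeR adjusted p = 5.4e-09) and 0.91 ± 0.07 in VHL restored cells (edgeR adjusted p = 6.0e-13) on the log2 scale. RBPJ, the DNA-binding partner of Notch and another known COX4I2 activator, fell by 0.44 ± 0.07 in VHL restored cells (edgeR adjusted p = 2.3e-06), while its value of 0.11 ± 0.07 in double knockout cells did not pass (edgeR adjusted p = 0.210).

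LONP1, a HIF-1 target in other cells, rose where the HIF genes were disrupted. The parental pair was at 175.0 and 175.9 CPM, the double knockout pair at 225.3 and 207.8, and the VHL restored pair at 178.2 and 181.0. The double knockout libraries stood above the other 4, which spanned only 175.0 to 181.0. The log2 fold change was 0.30 ± 0.06 in double knockout cells (edgeR adjusted p = 5.4e-05). In VHL restored cells it was 0.03 ± 0.06, with a 95% interval from -0.09 to 0.16 (edgeR adjusted p = 0.662). LONP1 shares 43 exonic bases with RPL36 on the opposite strand, and reads there cannot be told apart if strand was not used in counting.

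HIGD1A, a small inner membrane protein that binds complex IV and is known as hypoxia-inducible, was lowest in the parental libraries. In CPM, the parental libraries gave 28.3 and 28.3, the double knockout libraries 38.7 and 44.9, and the VHL restored libraries 32.5 and 34.5. No 2 groups overlapped. It rose by a log2 fold change of 0.56 ± 0.08 in double knockout cells (edgeR adjusted p = 5.8e-07). The rise in VHL restored cells was smaller, 0.24 ± 0.08 (edgeR adjusted p = 0.0131). That call was lost without parental replicate 1 (log2 fold change 0.25, edgeR adjusted p = 0.127), without parental replicate 2 (0.25, adjusted p = 0.115) and without VHL restored replicate 2 (0.20, adjusted p = 0.0754). HIGD1A has 17 annotated pseudogenes in GENCODE v29, none with a row in the table, so its values are uncertain if reads were shared among copies. It also shares 488 exonic bases with AC099329.1 and 337 with AC006059.2 on the same strand, neither with a row in the table.

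HIGD2A, which is known to help complex IV join respiratory supercomplexes, rose in one line and did not pass in the other. Parental libraries gave 45.6 and 42.4 CPM, double knockout libraries 60.6 and 56.9, and VHL restored libraries 36.7 and 41.4. The log2 fold change was 0.42 ± 0.08 in double knockout cells (edgeR adjusted p = 2.1e-05). In VHL restored cells it was -0.17 ± 0.08, with a 95% interval of -0.33 to -0.01 before adjustment (edgeR adjusted p = 0.0607), and both libraries lay below both parental libraries. This value passed the threshold under total count scaling (edgeR adjusted p = 0.0472), with the replicate block (0.0315) and without VHL restored replicate 2 (0.0104). HIGD2A shares 227 of its 668 exonic bases with NOP16 on the opposite strand, and NOP16, a ribosome assembly gene, had log2 fold changes of 0.80 and -0.28, the same signs as HIGD2A. The part of NOP16 reads in the HIGD2A counts was not tested.

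**Figure D2:**
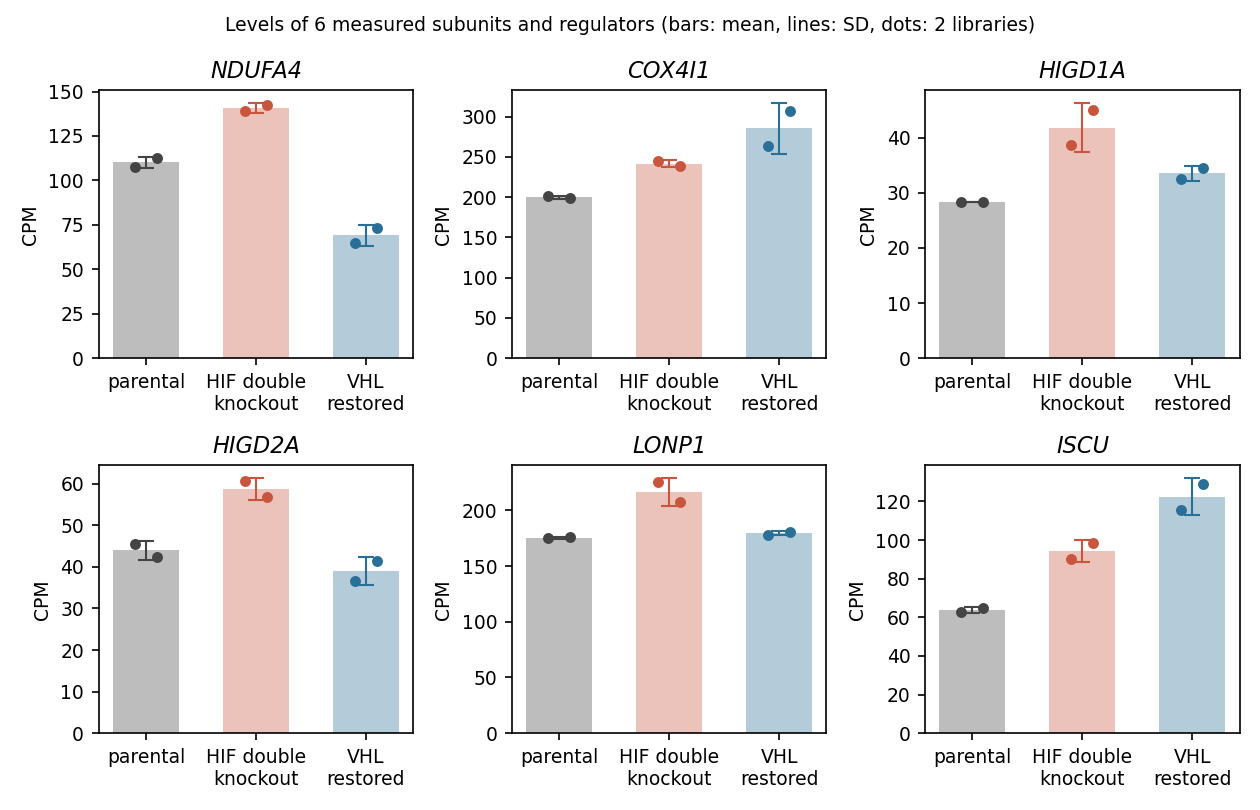
Levels of NDUFA4, COX4I1, HIGD1A, HIGD2A, LONP1 and ISCU in CPM (vertical axes from 0, scaled separately) for parental, HIF double knockout and VHL restored cells, with bars for means, lines for SD and dots for the 2 libraries. All 6 genes are higher in double knockout than in parental libraries. VHL restored libraries are the lowest of the 3 groups for NDUFA4 and HIGD2A, the latter not past the threshold against parental cells. They are the highest for COX4I1 and ISCU.

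ISCU was the member that rose most in VHL restored cells. The parental pair was at 62.6 and 64.9 CPM, the double knockout pair at 90.4 and 98.4, and the VHL restored pair at 115.7 and 129.2. The 3 groups were in that order with no overlap. The log2 fold change was 0.57 ± 0.07 in double knockout cells (edgeR adjusted p = 2.8e-08) and 0.94 ± 0.07 in VHL restored cells (edgeR adjusted p = 4.2e-13). The microRNA and its site in ISCU transcripts are shown because the host transcript of miR-210 moved the other way. In the microRNA, from RefSeq (GRCh38.p14, chr11:568112-568133, minus strand), capitals mark the seed (bases 2 to 8), and in the ISCU site, from GENCODE v29, they mark the letters complementary to it.
hsa-miR-210-3p: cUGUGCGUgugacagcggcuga
ISCU site: gaagagctatgagatACGCACAata
Of 6 protein-coding ISCU transcripts, 4 hold the match, and ISCU-205 and ISCU-208 do not. It lies in the 3′ UTR, at bases 637 to 643 of the 994-base transcript ISCU-201, whose coding sequence ends at base 526. Among 59592 coding transcripts with a 3′ UTR, 2.01% held the same 7 letters there. MIR210HG, the host transcript from which miR-210 is made, had 12.4 and 12.7 CPM in the parental pair, 0.684 and 0.855 in the double knockout pair, and 1.54 and 2.25 in the VHL restored pair. Its log2 fold change was -4.03 ± 0.24 in double knockout cells (edgeR adjusted p = 1.3e-18) and -2.72 ± 0.17 in VHL restored cells (edgeR adjusted p = 2.9e-16). Host and ISCU thus had opposite signs in both lines, but the line with the lower host level, the double knockout, was not the one with the higher ISCU level. The mature microRNA was not measured in these libraries, and its part in the ISCU difference was not tested.

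**Figure D3:**
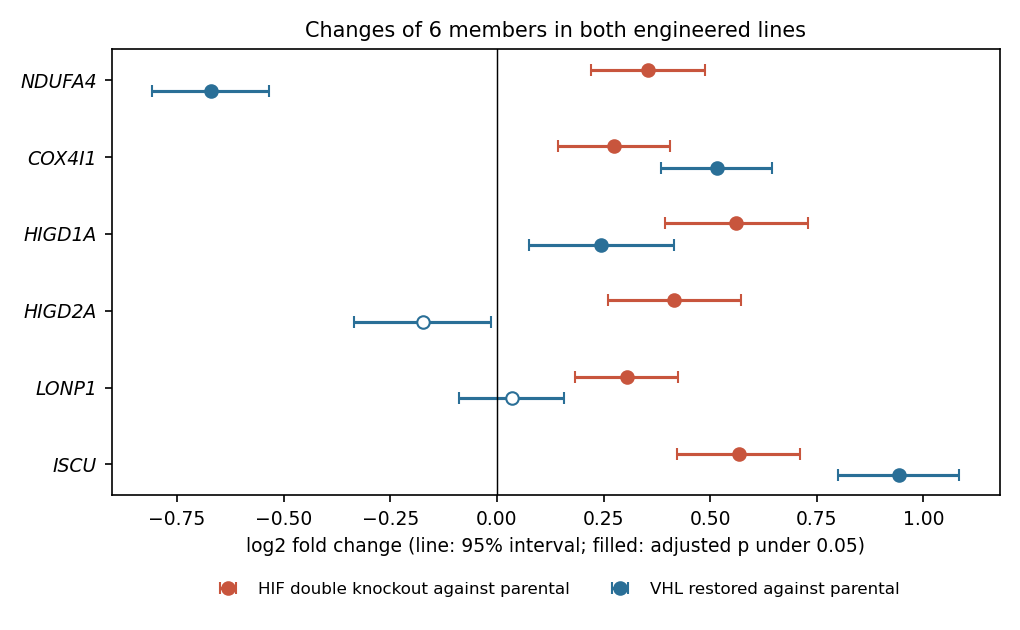
Log2 fold changes against parental cells (horizontal axis) of 6 members, with dots for the edgeR estimate, lines for its 95% interval, and filled dots where the adjusted p was under 0.05. Double knockout values are all above 0, while VHL restored values run from -0.67 for NDUFA4 to 0.94 for ISCU, with LONP1 and HIGD2A unfilled. NDUFA4L2 is left out because its double knockout value rests on 1 read.

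The 2 engineered lines were also compared directly. Here 7 of 7 members passed the threshold, with 4 higher and 3 lower in double knockout than in VHL restored cells, against a background of 56.0% called, 28.0% higher and 28.0% lower, and 74.1% called among genes with a mean of at least 1 CPM. NDUFA4 was 2.04-fold higher in double knockout cells (log2 difference 1.03 ± 0.07, edgeR adjusted p = 2.1e-14). HIGD2A (0.59 ± 0.08), HIGD1A (0.32 ± 0.08) and LONP1 (0.27 ± 0.06) were also higher there on the log2 scale. ISCU, at -0.38 ± 0.07 (edgeR adjusted p = 1.6e-05), and COX4I1, at -0.24 ± 0.06 (edgeR adjusted p = 0.00152), were higher in VHL restored cells. The remaining NDUFA4L2 reads, 1 against 8, gave a ratio of 7.86 with an exact 95% counting interval of 1.05 to 349 (edgeR adjusted p = 0.0347).

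Some of these calls were lost when 1 library was left out. Without double knockout replicate 2, 4 members passed. NDUFA4L2 (log2 difference -1.93, edgeR adjusted p = 0.209), HIGD1A (0.21, adjusted p = 0.0526) and COX4I1 (-0.22, adjusted p = 0.0585) did not, although the COX4I1 value had hardly moved. Without VHL restored replicate 2, COX4I1 (-0.12, edgeR adjusted p = 0.0932) and NDUFA4L2 (-1.74, adjusted p = 0.357) did not pass. The NDUFA4L2 difference between the engineered lines was lost in 7 of 14 alternatives.

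Between genes, levels were compared per kilobase of the principal GENCODE v29 transcript. In parental cells COX4I1 was highest at 228.6 ± 1.97 CPM per kilobase (SD, n = 2), followed by HIGD2A at 65.9 ± 3.32, ISCU at 64.1 ± 1.67, LONP1 at 54.2 ± 0.212, NDUFA4 at 51.7 ± 1.54, NDUFA4L2 at 49.5 ± 1.62 and HIGD1A at 20.6 ± 0.0215. HIGD2A and ISCU overlapped between libraries, as did NDUFA4 and NDUFA4L2, so parental cells held the paralogs at levels that on this scale did not differ beyond their spread. In double knockout cells the order was COX4I1 (276.5 ± 4.70), ISCU (94.97 ± 5.73), HIGD2A (88.0 ± 3.86), LONP1 (66.9 ± 3.81), NDUFA4 (66.1 ± 1.23), HIGD1A (30.4 ± 3.23) and NDUFA4L2 (0.0144 ± 0.0204), with LONP1 and NDUFA4 overlapping. After VHL restoration it was COX4I1 (326.8 ± 35.8), ISCU (123.2 ± 9.58), HIGD2A (58.4 ± 4.96), LONP1 (55.5 ± 0.610), NDUFA4 (32.4 ± 2.81), HIGD1A (24.4 ± 1.03) and NDUFA4L2 (0.121 ± 0.0852), with HIGD2A and LONP1 overlapping. The order depends on the length used: over all annotated exons of a gene, HIGD2A was highest in parental cells at 65.9 CPM per kilobase and ISCU lowest at 14.4, with NDUFA4 at 31.0 and NDUFA4L2 at 20.9.

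Around these members, complex IV subunits leaned upward in double knockout cells. Of 13 tested subunits, NDUFA4 and COX4I1 included, 8 rose and 2 fell, with a median log2 fold change of 0.27 against 0 over all genes tested. Over all genes tested, 26.6% were higher and 27.5% lower. Among genes with a mean of at least 1 CPM 71.7% were called, so the number called is near that share. COX5A, COX6B1 and COX7B, nuclear-encoded subunits, rose by 0.60 ± 0.07, 0.59 ± 0.07 and 0.49 ± 0.07 on the log2 scale. In VHL restored cells 3 subunits rose, COX4I1, COX6A1 and COX6B1 (0.53 ± 0.07), and 2 fell, with a median of 0.04. The shares there were 26.5% higher and 27.7% lower over all genes, and 71.8% called among genes with a mean of at least 1 CPM. The 2 subunits that fell in double knockout cells were COX5B and COX6A1, and the count was 1 without parental replicate 1 and 0 without parental replicate 2 or double knockout replicate 2. The 3 that rose after VHL restoration became 5 without VHL restored replicate 1, and the 2 that fell became 1 without that library, without either parental library or with libraries centred on their median.

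Complex IV assembly factors, which insert copper and heme and join the subunits, had 15 of 26 higher and 5 lower in double knockout cells, with a median log2 fold change of 0.22. Of all genes tested, 26.6% were higher and 27.5% lower, and 71.7% of genes with a mean of at least 1 CPM were called in either direction, so the number called is near that share. After VHL restoration 7 rose and 11 fell, with a median of -0.18. Over all genes tested, 26.5% were higher and 27.7% lower in that comparison. Among genes with a mean of at least 1 CPM 71.8% were called there, so the 18 of 26 called are near that share. The copper chaperone genes SCO2, COA6 and COX17 rose in double knockout cells by 1.16 ± 0.09, 0.83 ± 0.11 and 0.76 ± 0.11 on the log2 scale, and had -0.07 ± 0.10, -0.28 ± 0.12 and -0.05 ± 0.12 in VHL restored cells, none past the threshold. COA6 (edgeR adjusted p = 0.0505) passed in 8 of 14 alternatives, with total count scaling (0.0490) and the replicate block (0.0195) among them. Without parental replicate 1, 9 assembly factors rose in the double knockout line and 4 in the VHL restored line, and the 5 that fell in double knockout cells became 3 without either parental library or double knockout replicate 1. CHCHD4, whose product oxidizes and traps small proteins in the intermembrane space, rose in both lines, by 0.43 ± 0.10 (edgeR adjusted p = 0.000483) and 0.37 ± 0.10 (edgeR adjusted p = 0.00236).

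Among 19 tested genes of iron-sulfur cluster assembly, ISCU included, 11 rose and 2 fell in double knockout cells and 10 rose and 6 fell in VHL restored cells, with a median log2 fold change of 0.31 in each. Over all genes tested, 26.6% and 26.5% were higher and 27.5% and 27.7% lower, with a median of 0. Among genes with a mean of at least 1 CPM, 71.7% and 71.8% were called, so the number called in double knockout cells is near that share. FDXR (ferredoxin reductase) and ISCA2 rose in both lines as ISCU did. Their log2 fold changes were 0.87 ± 0.07 and 0.63 ± 0.10 in double knockout cells and 0.67 ± 0.07 and 0.98 ± 0.09 in VHL restored cells. The 2 genes that fell in double knockout cells became 1 or 0 when any parental or double knockout library was left out.

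Mitochondrial proteases, the class of LONP1, were divided. Of 17 tested, LONP1 included, 5 rose, LONP1 among them, and 5 fell in double knockout cells (median log2 fold change 0.13), and 2 rose and 9 fell in VHL restored cells (median -0.36). These counts lie between the share called among all genes (54.1% and 54.2%) and that among genes with a mean of at least 1 CPM (71.7% and 71.8%). CLPP, a further matrix protease gene of the list, rose by 0.69 ± 0.08 in double knockout cells. In VHL restored cells it had 0.14 ± 0.08, which did not pass (edgeR adjusted p = 0.129), the same calls as LONP1. CLPX, of the same list, instead fell by 0.39 ± 0.07 in double knockout cells (edgeR adjusted p = 3.2e-05). Its parental libraries had 51.8 and 56.3 CPM and its VHL restored libraries 38.2 and 37.7. LACTB rose by 1.34 ± 0.08 in double knockout cells and fell by 0.36 ± 0.08 in VHL restored cells, while HTRA2 fell by 0.70 ± 0.10 and 0.44 ± 0.10. The 2 proteases that rose in VHL restored cells became 1 without parental replicate 1 and 0 without parental replicate 2.

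**Figure D4:**
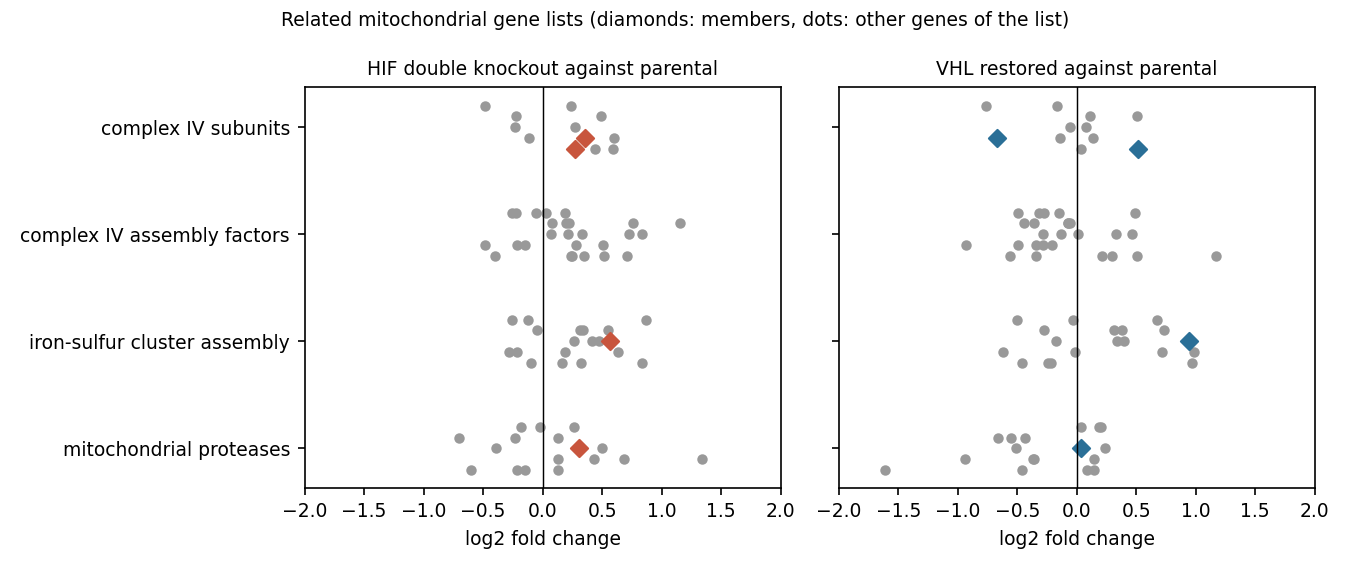
Log2 fold changes against parental cells (horizontal axes) of genes in 4 mitochondrial lists, for HIF double knockout (left) and VHL restored cells (right), with diamonds for NDUFA4, COX4I1, ISCU and LONP1 and dots for the other genes of each list; vertical offsets only separate points, and genes at or under 3 counts in both groups are left out. NDUFA4 and COX4I1 lie together on the left and on opposite sides of 0 on the right, at -0.67 and 0.52.

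Of 14 tested HIF-linked mitochondrial and metabolic genes, NDUFA4L2, HIGD1A and LONP1 included, 11 fell and 3 rose in double knockout cells (median log2 fold change -1.67). NDUFA4L2 is 1 of the 11, and the 3 that rose were HIGD1A, LONP1 and the mitophagy receptor gene FUNDC1 (0.65 ± 0.09). In VHL restored cells 12 fell, FUNDC1 among them, and 1, HIGD1A, rose (median -1.86). Over all genes tested, 27.5% were lower and 26.6% higher in double knockout cells, and 27.7% and 26.5% in VHL restored cells. The median over all genes was 0 in each comparison, and 71.7% and 71.8% of genes with a mean of at least 1 CPM were called. EGLN3, a HIF prolyl hydroxylase gene, was at 418.7 and 418.1 CPM in parental libraries and between 0.0715 and 0.444 in the other 4. PDK1, which limits pyruvate entry into mitochondria, fell by 3.05 ± 0.09 and 3.28 ± 0.09 on the log2 scale, and BNIP3, a mitophagy receptor gene, by 2.35 ± 0.07 and 3.32 ± 0.08. HIGD1A lost its call in VHL restored cells without the libraries named above, which left 0 of 14 higher. In the HIG1 family, HIGD2B was at or under 3 counts in each library and HIGD1B had 0 reads.

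Among 12680 genes with a mean of at least 1 CPM, those closest to a member over the 6 libraries were found by the Euclidean distance between log2 CPM values centred on the parental mean. For NDUFA4L2 the closest genes were ENPEP, which encodes an aminopeptidase (distance 0.781), STC1, a secreted glycoprotein gene (1.504), and LOC100506134 (1.66). ENPEP had 122.5 ± 2.40 CPM in parental cells, 0.165 ± 0.0406 with the double knockout and 0.447 ± 0.0256 with VHL restored, and STC1 had 26.8 ± 3.72 CPM in parental cells and 0 reads in the other 4 libraries. For LONP1 the closest was CYC1, the cytochrome c1 gene of complex III (0.0594), with 122.0 ± 2.86, 147.0 ± 8.54 and 125.5 ± 2.77 CPM in parental, double knockout and VHL restored cells, then ZDHHC5 (0.0630) and SLBP (0.0743). For HIGD1A they were ARL3, a small GTPase gene (0.105), C11orf83, a complex III assembly factor gene (0.106), and TRAPPC13 (0.107).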

How the data were processed

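Messenger RNA of RCC10 cells was sequenced from 6 libraries, 2 in each of 3 groups. The authors deposited 1 table of counts per gene symbol. It is named as normalized, but it holds whole numbers whose totals differ between libraries, and it was used as raw counts. The submitters' processing notes list HISAT2 2.2.1 and featureCounts 2.0.8 beside Trimmomatic 0.39, FastQC 0.74, limma 3.58.1 and the builds hg38 and hg19. The sources used here do not say which build the counts use, nor give the strandedness or the handling of shared reads.

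The 18273 genes with any count were tested with edgeR 4.0.16 in R 4.3.3 (TMM factors 0.977 to 1.02, a model of 3 group means over all 6 libraries, quasi-likelihood F test, Benjamini-Hochberg adjustment over all genes in each comparison, threshold 0.05). Standard errors come from the same fit, whose biological coefficient of variation was 4.41%. A level of 3 counts was taken as the limit of detection, and a fold against a group with 1 to 3 counts is an exact counting ratio. The code was tested on simulated data. Exact counting intervals are at 95%. Gene lengths and the ISCU site come from GENCODE v29, and promoter and microRNA sequences from RefSeq tables of GRCh38.p14, in which promoters of all 7 measured members were found.

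The members and the gene lists were chosen with earlier results of these data known. Genes named besides the members are the 3 of each list with the largest change past the threshold in the double knockout comparison (1 of these is not reported here), all 6 regulators linked to the members, HIF1A, EPAS1 and VHL, and the 3 genes closest to NDUFA4L2, HIGD1A and LONP1. COX6A1, COX5B, CLPX, FUNDC1, HIGD1B, HIGD2B, NOP16 and the cell markers were named after their values were seen. Summed marker levels were for 9 pericyte genes (mostly ACTA2) 46.8 to 47.4 CPM for parental, 49.7 to 51.8 for double knockout and 40.6 to 41.2 for VHL restored libraries. For 6 endothelial genes they were 0.539 to 0.617, 0.239 to 0.311 and 1.75 to 1.86, for 8 leukocyte genes 1.10 to 1.35, 2.60 to 3.83 and 1.79 to 1.82, and for 6 fibroblast genes 9.33 to 9.53, 3.80 to 4.12 and 11.9 to 13.2. For 12 renal genes, of which VIM was the highest, they were 8863 to 8920, 7164 to 7175 and 6146 to 6513. Alternatives were other scalings and filters, DESeq2 1.42.0, limma-voom, a fit of only the groups compared, a replicate block and leaving out each library.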

Additional observations from a re-analysis of the deposited data

How the results depend on the processing

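The 21 member results, 7 genes in 3 comparisons, were recomputed under 14 alternatives. Of 294 values, 277 kept direction and side of the threshold, 14 lost the call, 3 gained it and 0 changed sign, and 15 of the 21 results kept both throughout. The number of members called in double knockout against VHL restored cells ranged from 4 to 7 when 1 library was left out. The NDUFA4L2 to NDUFA4 log2 ratio in double knockout against parental cells was -9.22 with 3 added to each count. Among the 36 other named genes, 7 of 1484 values changed sign, all of results that had not passed and all on leaving out 1 library, while 46 values lost and 17 gained a call. Their log2 values ranged from -0.0104 to 0.215 for RBPJ in double knockout cells, from -0.0179 to 0.232 for COX7B, -0.219 to 0.0952 for COX17 and -0.0975 to 0.0664 for ACTB in VHL restored cells, and from -0.0498 to 0.181 for COX6B1 between the engineered lines. For these the cause was not tested. Replicate numbers paired the libraries weakly at most. Over 12687 genes, deviations from the group means correlated at 0.14 between parental and double knockout libraries. The value was -0.003 between parental and VHL restored libraries and 0.01 between the engineered lines. Whether the value of 0.14 reflects a shared replicate effect was not tested. With a replicate block, 7, 6 and 7 members were called, against 7, 5 and 7 without it. Ratios of COX4I2 to COX4I1 were not run. NDUFA4L2 in the engineered lines, at 0 to 6 reads, is limited by depth.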

Other observations

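Regulators of mitochondrial biogenesis differed among themselves. Of 11 tested, 5 rose and 2 fell in double knockout cells and 4 rose and 5 fell in VHL restored cells, where 71.7% and 71.8% of genes with a mean of at least 1 CPM were called. PPARGC1A, which encodes the coactivator PGC-1alpha, had 45.9 and 44.1 CPM in the parental pair, 0.0684 and 0.311 in the double knockout pair, and 0.0715 and 0 in the VHL restored pair, so that it too was nearly silent in both engineered lines. Its paralog PPARGC1B rose in both, by 0.98 ± 0.14 (edgeR adjusted p = 2.2e-07) and 0.48 ± 0.14 (edgeR adjusted p = 0.0044) on the log2 scale, the latter call being lost without parental replicate 1 (0.204). POLRMT, the mitochondrial RNA polymerase gene, rose by 0.95 ± 0.08 and 0.57 ± 0.08. Without parental replicate 1, 2 of the 11 rose in VHL restored cells.

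Genes often used as references were also called in part. Of 12 tested, 4 rose and 3 fell in double knockout cells and 1 rose and 6 fell in VHL restored cells. With 7 of 12 called in each comparison, the share was above that of all genes (54.1% and 54.2%). It was below that of genes with a mean of at least 1 CPM (71.7% and 71.8%), a level that all 12 reached. ACTB rose by 0.76 ± 0.05 in double knockout cells and had -0.03 ± 0.05 in VHL restored cells (edgeR adjusted p = 0.711). B2M rose by 0.64 ± 0.06 in the former and fell by 0.48 ± 0.06 in the latter, and TFRC, the transferrin receptor gene, rose by 0.40 ± 0.05 and fell by 0.84 ± 0.05.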
